A study of Homo sapiens with 12 samples.

Results

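The anti-apoptotic BCL2 family genes examined here were BCL2, BCL2L1, BCL2L2, MCL1, BCL2A1 and BCL2L10, 6 of 20136 protein-coding genes on chromosomes 1 to 22, X and Y. They were chosen by name as the genes for the family's survival proteins, and not by any measured value. H3K4me3, a histone mark of active promoters, had been profiled by CUT&RUN, in which an antibody directs a nuclease to chromatin and the released fragments are sequenced. The cells were BON1, a human pancreatic neuroendocrine tumor line, either overexpressing HA-tagged Bcl-xL (BON1/TGL/HA-Bcl-xL) or the control cells (BON1/TGL/pQ). All of them were grown with puromycin, and 500000 cells were used per condition. Each line had 3 labelled replicates per antibody, one antibody against H3K4me3 and the other a rabbit anti-mouse IgG that measures background. The 11 peak lists used cover 3 control H3K4me3 libraries, 2 HA-Bcl-xL H3K4me3 libraries (replicates 2 and 3) and 6 IgG libraries. The first HA-Bcl-xL replicate of H3K4me3 was not analysed here. Values below run in replicate order, the 3 control libraries first. Whether either line was a clone, and which promoter drove the transgene, is not given in the sources used here, and no label says that replicates came from separate cultures, so p-values measure the spread between these samples only.

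BCL2 family proteins control the permeability of the outer mitochondrial membrane. The anti-apoptotic members hold the effectors BAX and BAK in check, and BH3-only proteins such as BIM and PUMA bind the anti-apoptotic members and release the effectors. Bcl-xL, the long product of BCL2L1, is one of these survival proteins and is the product overexpressed in the HA-Bcl-xL cells. H3K4me3 is usually deposited around the first nucleosomes downstream of an active start site, most often at CpG-rich promoters.

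The H3K4me3 lists held 10247 to 17711 peaks and the IgG lists 1674 to 2113 in control and 244 to 268 in HA-Bcl-xL libraries. The lists give no read totals, so depth is known only through the fragments behind each peak. Of 10 neuroendocrine markers, 4 (CHGB, SCG2, SCG3 and NEUROD1) had a peak within 1 kb in every H3K4me3 library, and ENO2 and INSM1 had none there. TPH1 had one in the HA-Bcl-xL libraries only. Of 7 measured markers of blood cells, fibroblasts and endothelium, none had a peak within 1 kb in any library, as for 51.8% of all genes. Within 2.5 kb COL1A1 had one in HA-Bcl-xL replicate 2, and within 10 kb the markers with one numbered 2, 1 and 1 in control and 3 and 1 in HA-Bcl-xL libraries. A missing peak shows only that none was called at this depth, not that the mark was absent.

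The 6 genes fell into 4 with H3K4me3 peaks and 2 without, in both lines alike. BCL2, BCL2L1, BCL2L2 and MCL1 had a peak in all 5 H3K4me3 libraries no farther than 10 kb from their most 5′ annotated end. BCL2A1 and BCL2L10 had none in any library. Over all protein-coding genes, 29.7% had a peak within 10 kb in all 5 libraries and 39.5% had none. No member had an IgG peak within 10 kb in any of the 6 IgG libraries. Over all genes 4.47% had one in at least 1 of them, so 0 among 6 genes does not set the members apart. Per library that share was 1.15 to 1.54% in control and 0.199 to 0.243% in HA-Bcl-xL IgG, whose lists are shorter.

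**Figure D1:**
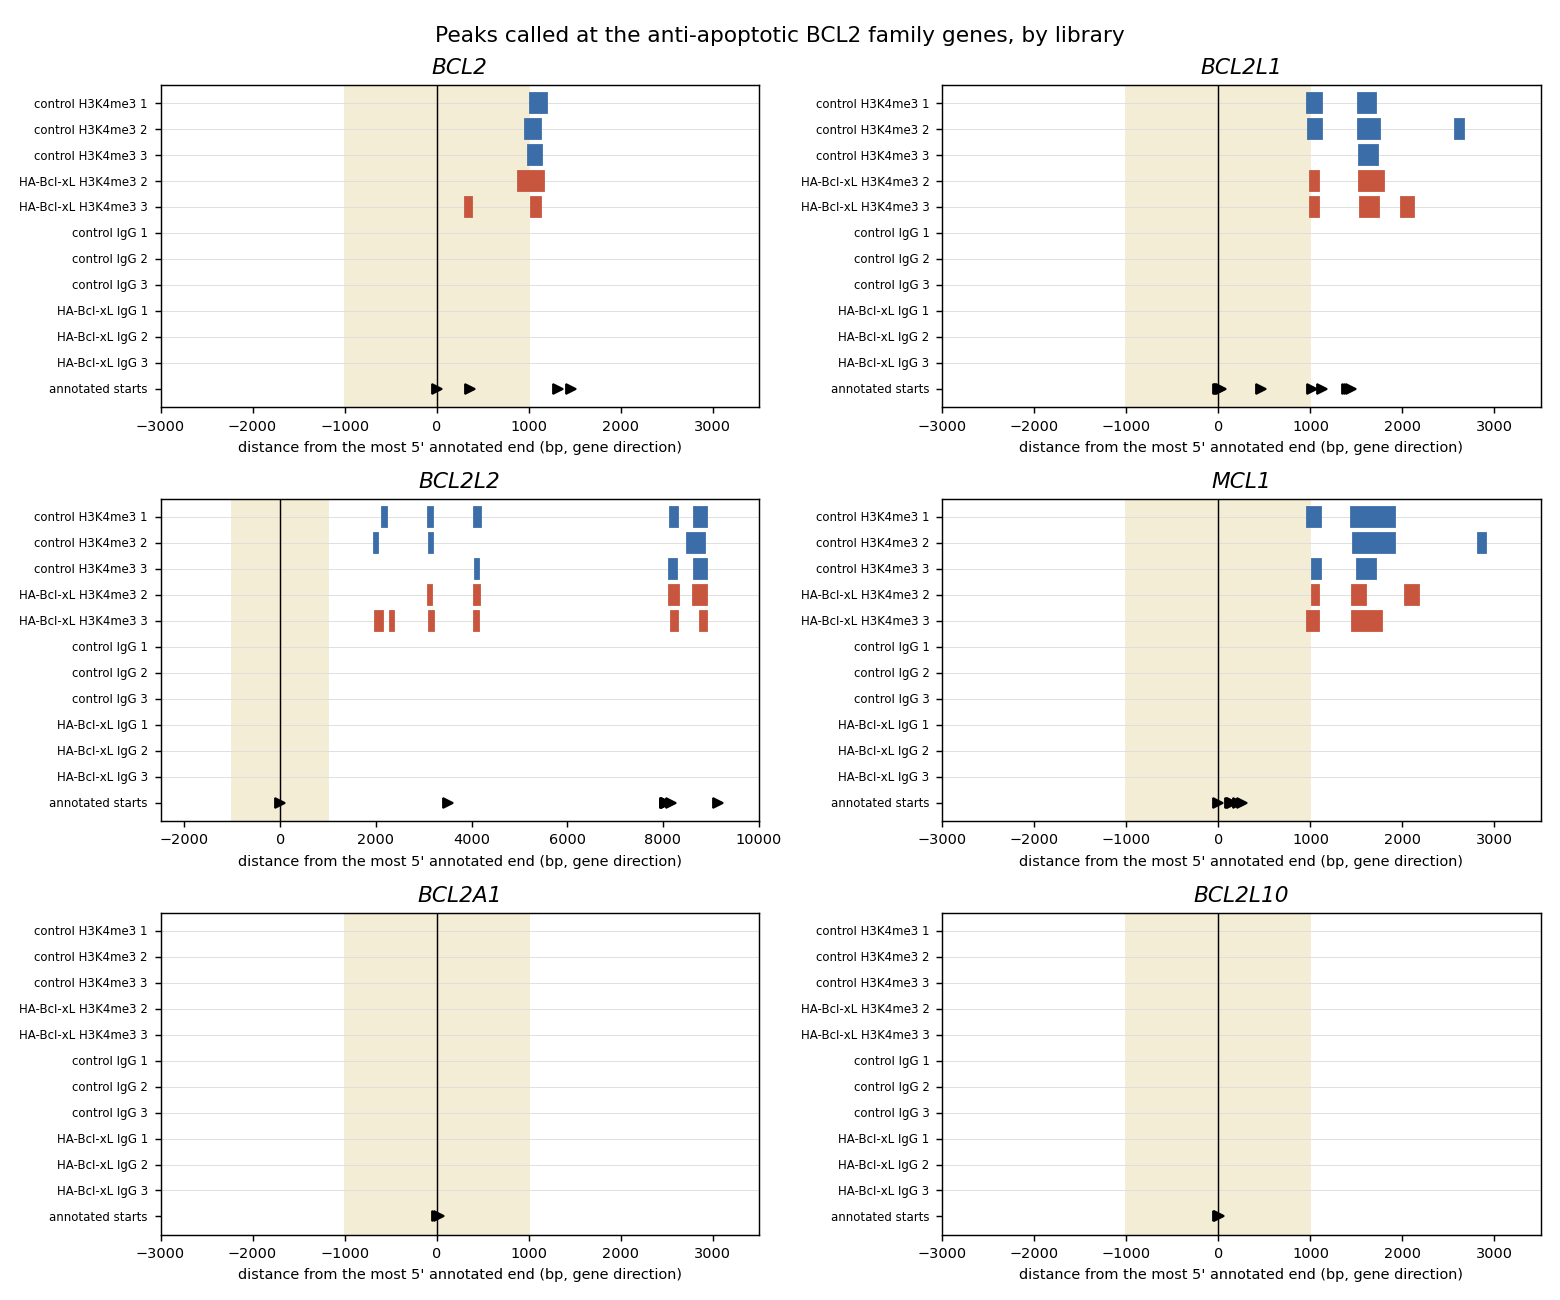
Peaks called in each of the 11 libraries (rows) at the 6 genes, by distance from the most 5′ annotated end in base pairs along the gene, with the 1 kb window shaded and annotated transcript starts as arrowheads. Blue bars are control H3K4me3 peaks and red bars HA-Bcl-xL H3K4me3 peaks, the IgG rows are empty, BCL2A1 and BCL2L10 have no bars, and the BCL2L2 panel covers a wider range.

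The stretches just upstream of the 5′ ends of 3 members are shown, those with a promoter entry in the RefSeq table. They let the CpG content be read beside the peak calls at these genes. Each is the 250 bases upstream of the 5′ end, read 5′ to 3′ on the minus strand, on which all 3 genes lie, from the GRCh37 (hg19) genome, with every CG dinucleotide in capitals. The stretches are chr18:60987362-60987611 for BCL2, chr20:30311793-30312042 for BCL2L1 and chr15:80263539-80263788 for BCL2A1.
BCL2: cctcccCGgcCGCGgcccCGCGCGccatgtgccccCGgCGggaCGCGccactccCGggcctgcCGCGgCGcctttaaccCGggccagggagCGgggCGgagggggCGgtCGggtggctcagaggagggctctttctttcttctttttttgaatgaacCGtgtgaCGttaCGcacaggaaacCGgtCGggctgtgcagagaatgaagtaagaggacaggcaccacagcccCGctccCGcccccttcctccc
BCL2L1: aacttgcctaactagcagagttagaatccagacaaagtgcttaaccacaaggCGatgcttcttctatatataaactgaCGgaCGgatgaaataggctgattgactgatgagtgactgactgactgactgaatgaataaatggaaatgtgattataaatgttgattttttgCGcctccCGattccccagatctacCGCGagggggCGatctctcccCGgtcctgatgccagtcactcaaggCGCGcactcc
BCL2A1: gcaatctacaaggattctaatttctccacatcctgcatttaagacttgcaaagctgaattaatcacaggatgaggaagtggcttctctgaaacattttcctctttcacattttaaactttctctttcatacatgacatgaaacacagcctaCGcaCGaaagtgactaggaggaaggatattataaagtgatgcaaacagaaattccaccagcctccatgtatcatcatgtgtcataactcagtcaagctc
The BCL2 stretch holds 26 CG dinucleotides, the BCL2L1 stretch 11 and the BCL2A1 stretch 2. The median over 20132 protein-coding promoters of the same length is 14, and 15.7% of them hold as few as BCL2A1 or fewer. The letters GGGCGG, searched on both strands, occur in the BCL2 stretch and not in the other 2, and in 48.8% of all such promoters. TATAAA, on both strands, occurs in the BCL2L1 and BCL2A1 stretches and in 10.1% of all promoters. CCAAT, on both strands, occurs in none of the 3 and in 33.1% of all promoters. These are matches of letters and not tested sites.

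CpG content within 1 kb on either side of the 5′ end did not separate the members with peaks from those without. The observed-to-expected CpG ratio was 0.916 at BCL2, 0.798 at MCL1 and 0.727 at BCL2L1, each with a peak within 2.5 kb in all 5 libraries. It was 0.34 at BCL2A1, in the third decile of all genes, where 83.4% of genes lacked a peak within 2.5 kb throughout and 5.41% had one in all 5. BCL2L10 also had no peak, at a ratio of 0.711, close to that of BCL2L1. In its decile of the genes, the seventh, 22.5% had no peak in any library and 40.4% had one in all 5. BCL2L2 had the lowest ratio, 0.148, and had a peak within 2.5 kb in 3 libraries. In its decile 94.5% of genes had none in any library and 1.29% had one in all 5. No BCL2L2 peak came within 1 kb of the 5′ end, where the ratio was taken. The nearest began 1958 bp downstream, beyond the 5′ end of the neighbouring gene HOMEZ at 1006 bp. At BCL2, BCL2L1 and MCL1, too, most bases under peaks within 2.5 kb lay beyond 1 kb. These shares describe the genes, which are not independent replicates.

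**Figure D2:**
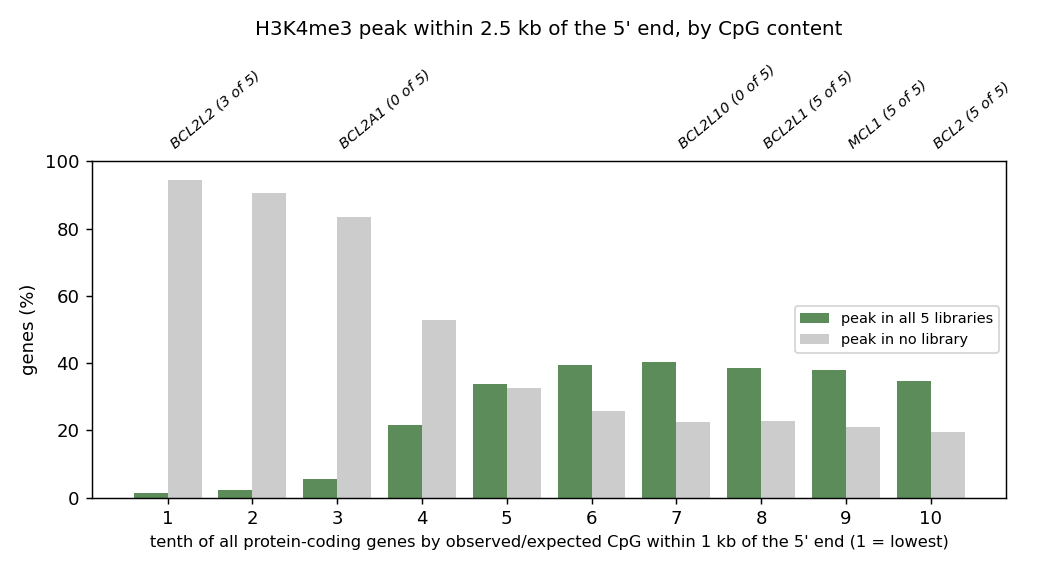
Percentage of protein-coding genes whose 5′ end had a peak of H3K4me3 within 2.5 kb in all 5 libraries (green) or in none (grey), in deciles of the genes by observed-to-expected CpG ratio, with each member's name, and its number of libraries with a peak, above its decile. BCL2A1 lies among deciles where most genes lack a peak, and BCL2L10, also without one, lies in a decile where 40.4% of genes have one in all 5. BCL2L2, with peaks in 3 libraries, none of them within 1 kb of its 5′ end, lies in the lowest decile.

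BCL2L1 encodes Bcl-xL and spans positions 30252255 to 30311792 of chromosome 20 (hg19) on the minus strand, with 15 annotated transcripts and 11 distinct starts. Its H3K4me3 peaks did not lie at the most 5′ end. One recurrent region, 30309992 to 30310276, had a peak in all 5 libraries, with summits 1560 to 1676 bp downstream of the 5′ end. A second, 30310670 to 30310826, had a peak in every library except control replicate 3, with summits that agreed within 9 bp, at 1037 to 1046 bp. Relative to the nearest annotated start, those summits lay 120 to 236 bp and 21 to 30 bp downstream, so both regions sit beside internal starts. All these summits fall in untranslated exon sequence. The noncoding gene ABALON, on the opposite strand at 30309310 to 30311212, covers both regions. Peak lists carry no strand, so the mark cannot be assigned to either gene.

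The peaks of these 2 recurrent regions ranked at percentile 74.3 or above in their own lists, while a peak at 30309122 to 30309222, called in control replicate 2 only, ranked at 21.3. By the authors' −log10 p, the peak of the first region stood at percentile 88.8, 88.6 and 92.4 in control and at 79.0 and 81.0 in HA-Bcl-xL libraries. The fragments at the summit, solved from the authors' fold enrichment and p, numbered 29, 24 and 23 in control and 23 and 24 in HA-Bcl-xL libraries. The control ranks were all above the HA-Bcl-xL ranks, but they come from lists of unequal length and cannot be read as a change or as its absence. In number of fragments the lines overlapped.

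Bases under H3K4me3 peaks within 2.5 kb of the BCL2L1 5′ end numbered 356, 390 and 215 in control, and 376 and 453 in HA-Bcl-xL libraries. The low value, in control replicate 3, is that of the library without the second region and with the shortest peak list. The means were 320.3 ± 92.8 (SD, n = 3) and 414.5 ± 54.5 (SD, n = 2), and the groups overlapped. On the log2(bases + 50) scale, with each library centred on its median, HA-Bcl-xL minus control was 0.19 (SE 0.42, 95% interval -0.81 to 1.18, limma adjusted p 0.998). The interval allows changes of either sign of up to about 1 on the log2 scale, so neither a difference nor its absence was shown. The estimate was 0.038 without control replicate 1, 0.016 without HA-Bcl-xL replicate 3, 0.37 without control replicate 2 and 0.36 without HA-Bcl-xL replicate 2. With the replicate block it was 0.032.

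The coding segment of BCL2L1 at 30309458 to 30310021 overlaps the downstream edge of the first region. No control library had a peak base over it, while the HA-Bcl-xL libraries had 30 and 146. The 146 bases are a separate peak at 30309665 to 30309810 in replicate 3, with 19 fragments at its summit and at percentile 56.9 of its list, and replicate 2 has only the edge of the upstream peak. The 3 other coding segments, at 30253755 to 30253889, 30254915 to 30254950 and 30272170 to 30272391, had 0 peak bases in every library of both antibodies. Over all genes, 0.422% had peak bases over coding sequence in both HA-Bcl-xL and no control library. This rule was chosen after the values of BCL2L1 were seen, so its place among those genes is a description. The HA-Bcl-xL transgene encodes the same protein, and the part of its DNA in the 30 and 146 bases was not tested.

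Over the 5 H3K4me3 libraries, the genes with centred log2 coverage within 2.5 kb most like that of BCL2L1 were CIR1 and SCRN3, each at a Euclidean distance of 0.154, and PCDHA10 at 0.283, among 8804 genes with a median distance of 2.44. CIR1 and SCRN3 had the same values, 363, 356 and 203 bases in control and 391 and 471 in HA-Bcl-xL libraries.

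MCL1 encodes a short-lived survival protein and lies on chromosome 1, 150533371 to 150552214, minus strand. It too had its mark inside the gene. Peaks in 150550298 to 150550771 were called in all 5 libraries, with summits 1530 to 1874 bp downstream of the 5′ end. Peaks in 150551096 to 150551250 were called in 4 of 5, all but control replicate 2, with summits 1041 to 1062 bp downstream. The nearest annotated start lay 780 to 1613 bp upstream of these summits, which fall in an exon of a noncoding MCL1 transcript. No peak edge came nearer than 964 bp to the 5′ end. The divergent noncoding gene ENSG00000290074 starts at -179 bp relative to that end.

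Within 2.5 kb, MCL1 had 629, 458 and 320 bases under peaks in control and 389 and 446 in HA-Bcl-xL libraries. Both HA-Bcl-xL values lay inside the control range. The means were 469 ± 155 (SD, n = 3) and 417.5 ± 40.3 (SD, n = 2), and the log2 difference was -0.28 (SE 0.38, 95% interval -1.19 to 0.63, limma adjusted p 0.998). It was -0.14 without HA-Bcl-xL replicate 2 and -0.42 without HA-Bcl-xL replicate 3. The fragments at MCL1 summits ranged from 12 to 27.

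BCL2, the founding member, spans 60790579 to 60987361 of chromosome 18 on the minus strand. A single region, 60986163 to 60986472, had a peak in all 5 libraries, with summits 988 to 1119 bp downstream of the 5′ end and at -328 to -197 bp relative to the nearest internal start. These were weaker peaks than those of BCL2L1. They ranked at percentile 23.1 to 49.6 of their lists with 8 to 12 fragments at the summit, whereas every BCL2L1 peak in the 2 recurrent regions ranked at 74.3 or above. HA-Bcl-xL replicate 3 alone had a further peak at 60986972 to 60987047, with 11 fragments, and another inside an intron at 60799875 to 60799993, with 5.

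BCL2 had 182, 178 and 151 bases under peaks within 2.5 kb in control and 282 and 191 in HA-Bcl-xL libraries. Both HA-Bcl-xL values were above every control value, by 9 bases at the closest, as they were for 10.5% of the 8805 genes tested. The means were 170 ± 16.9 (SD, n = 3) and 236.5 ± 64.4 (SD, n = 2). The log2 difference was 0.19 (SE 0.42, 95% interval -0.81 to 1.20, limma adjusted p 0.998), and the two-sided exact permutation p over libraries was 0.2, the smallest that 2 libraries against 3 can give. With every list cut to its top 10247 peaks the difference was -0.16, so the direction of BCL2 did not hold. It was 0.0012 without control replicate 1 and 0.015 without HA-Bcl-xL replicate 2, and 0.33 and 0.37 without the third replicate of control and of HA-Bcl-xL.

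BCL2L2 encodes BCL-W and lies on chromosome 14, 23767999 to 23780960, plus strand. No library had an H3K4me3 peak within 1 kb of its most 5′ end. The mark lay instead at internal starts, one of them 8043 bp downstream. Peaks in 23776492 to 23776929 were called in all 5 libraries, with 17 to 28 fragments at the summit. Peaks in 23776117 to 23776329 were called in all but control replicate 2. The internal start at 23776042, which opens 2 BCL2L2 transcripts, is also the 5′ end of the read-through gene BCL2L2-PABPN1, so these peaks cannot be assigned to either gene. Its CpG ratio of 0.27 is higher than that of the 5′ end and still at percentile 20.1 of all 5′ ends. Of all genes, 2.65% shared this pattern, lacking a peak within 1 kb of the 5′ end throughout and having one within 1 kb of another start in all 5.

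Further BCL2L2 peaks lay between these starts and the 5′ end, some of them at neighbouring genes. The region 23772040 to 23772195 covers the 5′ end of PPP1R3E, at 23772068 on the opposite strand, and had a peak in 4 of 5 libraries. One at 23771092 to 23771208 had a peak in 4 of 5, with summits at -382 to -366 bp relative to a BCL2L2 start at 23771505. Peaks between 23769957 and 23770227 were called in control replicates 1 and 2 and HA-Bcl-xL replicate 3, upstream of the HOMEZ 5′ end at 23769005. Within 10 kb of the BCL2L2 5′ end, the bases under peaks numbered 788, 555 and 523 in control and 730 and 774 in HA-Bcl-xL libraries. These HA-Bcl-xL values lay inside the control range. Within 2.5 kb only the peaks on the HOMEZ side counted, with 102, 83 and 0 bases in control and 0 and 256 in HA-Bcl-xL libraries, a log2 difference of 0.13 (SE 0.81, limma adjusted p 0.998). That value turned to -0.17 without control replicate 3, was 1.49 without HA-Bcl-xL replicate 2 and was -0.083 with a pseudocount of 10.

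BCL2A1 encodes A1 (BFL-1), a family member best known from blood cells, on chromosome 15 at 80253234 to 80263538. Its nearest H3K4me3 peak was 46.9 or 47.3 kb from the 5′ end in the control libraries and HA-Bcl-xL replicate 2, and 88.2 kb away in HA-Bcl-xL replicate 3. BCL2L10, on chromosome 15 at 52401460 to 52404972, had its nearest peak 66.5 kb from the 5′ end in all 5 libraries. Both genes were left out of the fit, since they had 0 bases in all 5.

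**Figure D3:**
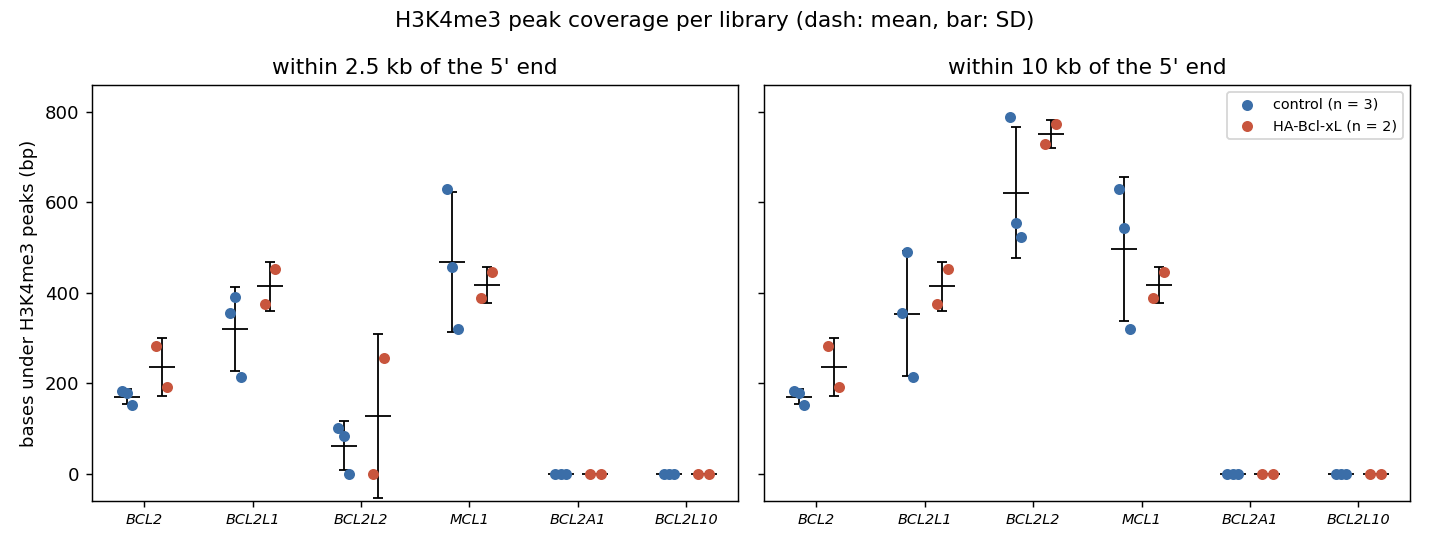
Bases under H3K4me3 peaks within 2.5 kb (left) and 10 kb (right) of the 5′ end for each of the 6 genes, one point per library, with dashes for means and bars for SD, control (n = 3) in blue and HA-Bcl-xL (n = 2) in red. The lines overlap at BCL2L1, BCL2L2 and MCL1, the HA-Bcl-xL points of BCL2 sit just above its control points, and BCL2A1 and BCL2L10 stay at 0.

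In BCL2, BCL2L1 and MCL1 the highest-ranked peak lay farther downstream of the most 5′ annotated end than in most genes. Its median position over the 5 libraries was 995 bp downstream of the 5′ end at BCL2, 1062 bp at MCL1 and 1576 bp at BCL2L1. Distances to the nearest annotated start, which may be an internal one, were not compared over all genes. Among 5151 genes with a peak inside that 2.5 kb window in all 5 libraries, the median was 110 bp, with quartiles of -60.5 and 712, and the 3 members stood at percentile 85.2, 87.4 and 95.5. BCL2L1 and MCL1 had this summit at least 900 bp downstream in all 5 libraries, as did 11.4% of these genes, a limit chosen after the values were seen. BCL2 did so in 4, since HA-Bcl-xL replicate 3 ranked its other peak, 384 bp downstream, higher.

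**Figure D4:**
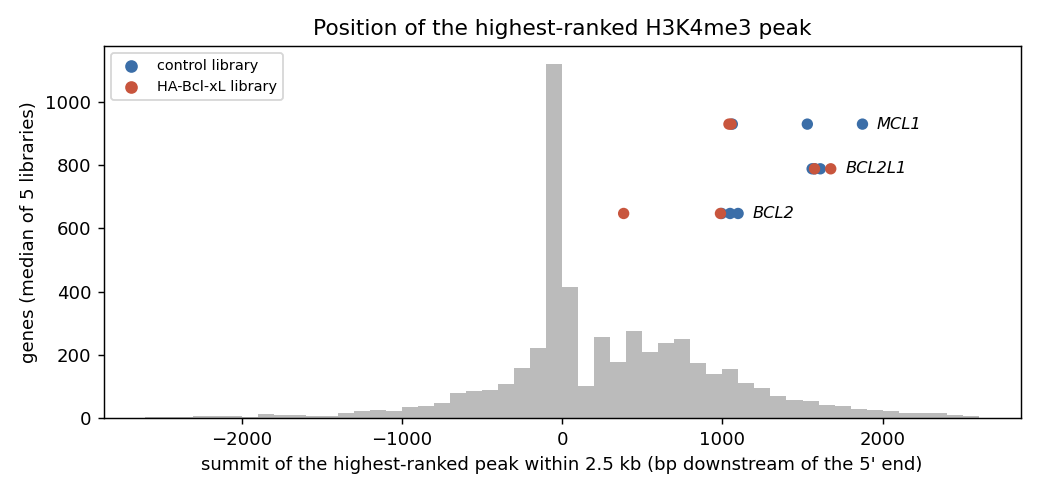
Histogram of the position of the highest-ranked H3K4me3 peak inside the 2.5 kb window (median of 5 libraries) for 5151 genes, in base pairs downstream of the most 5′ annotated end. Points show each library at BCL2, BCL2L1 and MCL1 in blue (control) and red (HA-Bcl-xL) at arbitrary height. The points lie to the right of the median of 110 bp, with BCL2L1 between 1560 and 1676 bp.

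This position made a 1 kb promoter window unsteady for these genes. The nearest peak edge lay 966, 972 and 1524 bp from the BCL2L1 5′ end in control and at 992 and 999 bp in HA-Bcl-xL libraries. At MCL1 it lay at 964, 1459 and 1015 bp in control and at 1016 and 965 bp in HA-Bcl-xL libraries. At BCL2 it lay at 1017, 957 and 996 bp in control and at 889 and 314 bp in HA-Bcl-xL libraries. At MCL1, for example, edges at 965 and 1016 bp fell on either side of the 1 kb limit. With it, the members with a promoter peak numbered 2, 2 and 1 in control and 2 and 3 in HA-Bcl-xL libraries, where the share of all genes was 40.4, 32.4 and 28.2% and 38.1 and 36.5%. Within 2.5 kb they numbered 4, 4 and 3 in control and 3 and 4 in HA-Bcl-xL libraries, against 45.8, 37.8 and 33.0% and 43.4 and 41.8% of all genes. In all 5 libraries together, 0 members had a peak inside the 1 kb window (21.3% of all genes) and 3 within 2.5 kb (25.6%). Within 1 kb of any annotated start it was 3, namely BCL2, BCL2L1 and BCL2L2 (26.5%).

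No member had a peak within 1 kb in every library of one line and in none of the other, a pattern found for 0.844% of genes in favour of HA-Bcl-xL and 0.248% in favour of control. When at least 50 peak bases within 1 kb were required, BCL2 showed it, with 112 and 76 bases in HA-Bcl-xL and 0, 44 and 5 in control libraries. That pattern held for 0.819% of all genes, and its opposite for 0.228%. For BCL2 it was gone at 2.5 kb. In the limma fit of 8805 genes, 0 passed an adjusted p of 0.05 in either direction (percent called 0.0 in each), and 440 had an unadjusted p under 0.05. Of the 4 members fitted, 3 had estimates above 0 and 1 below, with a median of 0.16 beside -0.02 over all genes. Over all genes 48.8% had estimates above 0. The signs of BCL2 and BCL2L2 turned under other settings, so no shared direction is read from the members.

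The other genes of the pathway were read the same way. Among the 3 pro-apoptotic effectors none had a peak within 1 kb in all 5 libraries, beside 21.3% of all genes with one. The effectors with one numbered 2, 0 and 2 in control and 1 and 1 in HA-Bcl-xL libraries. Per library the share of all genes was 40.4, 32.4 and 28.2% in control and 38.1 and 36.5% in HA-Bcl-xL. Of 8 BH3-only genes, BMF alone had a peak within 1 kb in all 5 libraries and 5 had none in any, beside 51.8% of all genes with none. BMF encodes a BH3-only protein that binds the anti-apoptotic members. It had 311, 264 and 110 bases within 2.5 kb in control and 112 and 120 in HA-Bcl-xL libraries, a log2 difference of -0.83 (SE 0.41, limma adjusted p 0.998). Control replicate 3 lay below both HA-Bcl-xL values, so the groups overlapped.

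Of 4 further BCL2-related genes, BCL2L12 and BCL2L13 had a peak within 1 kb in all 5 libraries and BCL2L14 and BCL2L15 in none. Over all genes these shares were 21.3% and 51.8%. BCL2L12 had 336, 315 and 305 bases in control and 273 and 198 in HA-Bcl-xL libraries, so both HA-Bcl-xL values were below every control value, as for 4.88% of the 8805 genes. Its log2 difference was -0.55 (SE 0.43, limma adjusted p 0.998). Of 7 genes acting downstream of the mitochondria, 3 had a peak within 1 kb in all 5 libraries and 2 had none, beside the same shares of all genes. CASP9 (the initiator caspase) and CYCS (cytochrome c) were among those 3. The 3 BH3-only genes fitted had a median log2 difference of -0.83 and the 6 downstream genes fitted 0.29, beside -0.02 over all genes. The filter on mean bases can keep a gene only through the line where it is high. No direction is therefore read from these few genes. Across these lists no fitted gene passed the limma threshold in either direction, none had a peak within 1 kb in every library of one line and in no library of the other, and none had an IgG peak in that window.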

How the data were processed

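Per the labels' protocols, CUT&RUN libraries of BON1 cells were made with a ThruPLEX kit. Per the submitters' processing notes, the tools were MACS2 2.1.1, Bowtie2 2.2.9, deepTools 3.5.1, Trimmomatic 0.36 and bcl2fastq 2.20, with the hg19 build and no stated settings. The files the authors deposited are narrowPeak lists, one per library, so replicates were not pooled. Each peak has a deposited score, a fold enrichment (a ratio), and a −log10 p and −log10 q. The deposited score equals 10 times the −log10 q with its decimals dropped, and no −log10 q was below 2. Single-peak values served to rank or filter peaks within a list and to solve fragment numbers. Fragments at each summit were solved from the deposited fold, read as (n + 1) / (background + 1), and −log10 p, read as a Poisson tail. For member peaks the fit was within 1.71e-05. Whether n counts fragments or reads is not recorded.

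From the lists, those peaks lying on chromosomes 1 to 22, X or Y were intersected with windows of 1, 2.5 and 10 kb around the most 5′ end, or around every transcript start, of GENCODE release 44 lifted to GRCh37. Bases under H3K4me3 peaks within 2.5 kb were compared with limma 3.58.1 in R 4.3.3, as log2(bases + 50), for genes averaging 50 bases or more. Each library's median was subtracted, and p-values were adjusted over 8805 genes (Benjamini-Hochberg). The step was tested on simulated data: at the spread of these libraries it recovered the size of known changes but called none of them, so a count of 0 calls says little about whether genes changed. Exact permutation tests used scipy 1.17.1. The other software was matplotlib 3.10.9, pysam 0.24.0, pandas 2.3.3 and numpy 2.4.6 under Python 3.11.15. The members and lists were chosen with earlier results of these data known. All 6 members were named. Listed pathway genes were named if they had a peak within 1 kb in all 5 libraries, or in one line only, or passed the threshold. The 3 genes nearest to BCL2L1 in coverage, and genes near a member's 5′ end on which a result turns, were named too. Of 8 markers of other cells, 7 were measured. Some listed genes are not reported here by name. RefSeq promoter entries matched 3 of the 6 members.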

Additional observations from a re-analysis of the deposited data

How the results depend on the processing

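No member of the family passed the limma threshold under any of the settings run, and the count over all genes stayed at 0 in each, the replicate block included. With 2 H3K4me3 libraries against 3, exact tests cannot pass 0.05, so a kept direction is no evidence of stability. Replicates 2 and 3 share only a number between lines. The replicate block left 0 genes called, with 404 higher and 139 lower at an unadjusted p under 0.05 (218 and 222 without the block), and gave BCL2 a log2 difference of -0.0049 and BCL2L1 one of 0.032, each in place of 0.19. Without centring, the median of all genes rose to 0.15, with BCL2L1 at 0.36, BCL2 at 0.36 and MCL1 at -0.11. BCL2 turned to -0.16 with equal list lengths. BCL2L2 turned to -0.083 with a pseudocount of 10, and ranged from -0.17 to 1.49 when single libraries were left out. The cause of these turns was not tested. HA-Bcl-xL minus control in the number of members with a promoter peak was 0.83 within 1 kb, -0.17 within 2.5 kb and 0.0 within 10 kb. The members with a peak in one line only numbered 0, and 1 (BCL2) when 50 bases were required. Over all genes, 170 had a promoter peak only in HA-Bcl-xL and 50 only in control libraries. Equal list lengths gave 79 for control. Leaving out single libraries gave 218 to 613 and 79 to 233 respectively, the highest without control replicate 1 and without HA-Bcl-xL replicate 2. With fewer libraries the rule is looser, so these counts could not fall, and their rise does not show dependence on a library. Within 1 kb no member reached the mean of 50 bases, so that window gave no fit for them, and BCL2L2 was not fitted without HA-Bcl-xL replicate 3. Of 83 values under other settings, 76 stayed the same, 3 moved and 4 reversed. Of 44 values with a library left out, 35 stayed the same, 8 moved and 1 reversed. All 8 that moved were the counts of genes with a promoter peak in one line only, which could not fall. The estimates for BCL2L1 (0.016 to 0.37), BCL2 (0.0012 to 0.37) and MCL1 (-0.42 to -0.14) nevertheless ranged widely within their direction.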
